A study of Mus musculus with 12 samples.

Results

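Nintedanib is a small molecule that blocks receptor tyrosine kinases for PDGF, FGF and VEGF. It was given to MC38 cells, a colorectal cancer line from the mouse, and its effect on the transcriptome was measured against untreated cultures. The comparison takes 6 of the 12 libraries of the series, chosen by their labels: 3 controls, for which the labels name no vehicle and no time, and 3 cultures given nintedanib at 3 µM for 24 h. The other 6 libraries, 3 from cultures given 8 Gy of X-rays and 3 given the drug and X-rays together (24 h for each treatment), entered the fit as further groups and served to compare the drug's effect with its effect in irradiated cells. Each group is 1 cell line grown alone, with no tumour, stroma or immune cells. The labels say that the experiment was carried out independently 3 times and do not say how cultures were shared between groups. Of the 54532 genes in the deposited table, 12279 had an FPKM (fragments normalised for gene length and library size) of at least 1 in at least 3 of the 6 libraries and were tested.

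Receptor tyrosine kinases of the kind this drug inhibits signal through the RAS-ERK and PI3K-AKT-mTOR pathways. Those pathways are known to drive MYC and G1 cyclins, to promote the making of ribosomes, nucleotides and lipids, and to hold back the MiT/TFE factors, which switch on lysosomal genes, and the FoxO factors. The gene groups below lie for the most part outside ATF4 targets, ERK feedback genes and cholesterol synthesis.

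The 6 libraries held 16899489 to 17836460 fragments, and 16.6 to 18.3 fragments made up 1 FPKM for each kilobase of gene length, so that shorter and lower genes were measured less precisely. The third nintedanib library stood apart: small RNA genes took 0.0275% of its fragments, against 0.239 to 0.380% in the other 5 libraries, and mitochondrial genes 2.12%, against 1.25 to 1.52%. In the markers of the line, 14 of 16 mesenchymal genes reached the level to be tested and 3 of 17 epithelial genes did. Vim, a mesenchymal intermediate filament gene, was at 547, 574 and 618 FPKM in the controls, while Epcam, which marks epithelium, had a listed value of 0 in each of the 6 libraries. Defining genes of leukocytes and endothelium were near 0 as well: Ptprc reached at most 0.00597 FPKM and Pecam1 0.244 FPKM. Of the 15 leukocyte markers, only Cd68 and Cd14 were tested. Cd68 encodes a lysosomal glycoprotein abundant in macrophages and went from 4.6, 3.86 and 3.55 FPKM in the controls to 14.4, 14.1 and 13.6 FPKM with nintedanib (log2 fold change 1.59, SE 0.0977, adjusted p = 6.39e-07). Cd14 did not pass the test (log2 fold change 0.01, adjusted p = 0.955).

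A gene is called changed where limma's moderated test gave an adjusted p under 0.05, and fold changes are differences of log2(FPKM + 1), nintedanib minus control. By that test 5372 of 12279 genes changed (43.7%), 2504 of them higher (20.4%) and 2868 lower (23.4%). At least 2-fold changes were found in 497 genes (4.05%), 211 higher (1.72%) and 286 lower (2.33%). The treated and control libraries did not overlap in 6447 genes (52.5%). Of the changed genes, 46.6% were higher, and 59.5% were higher once every library was rescaled to a common FPKM sum. The median over all genes tested was -0.02, and the middle 50% of genes lay between -0.28 and 0.23. Counts of members in the gene lists below are to be read against these shares. In bulk libraries, less RNA per cell and fewer cells with the transcript cannot be told apart.

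**Figure D1:**
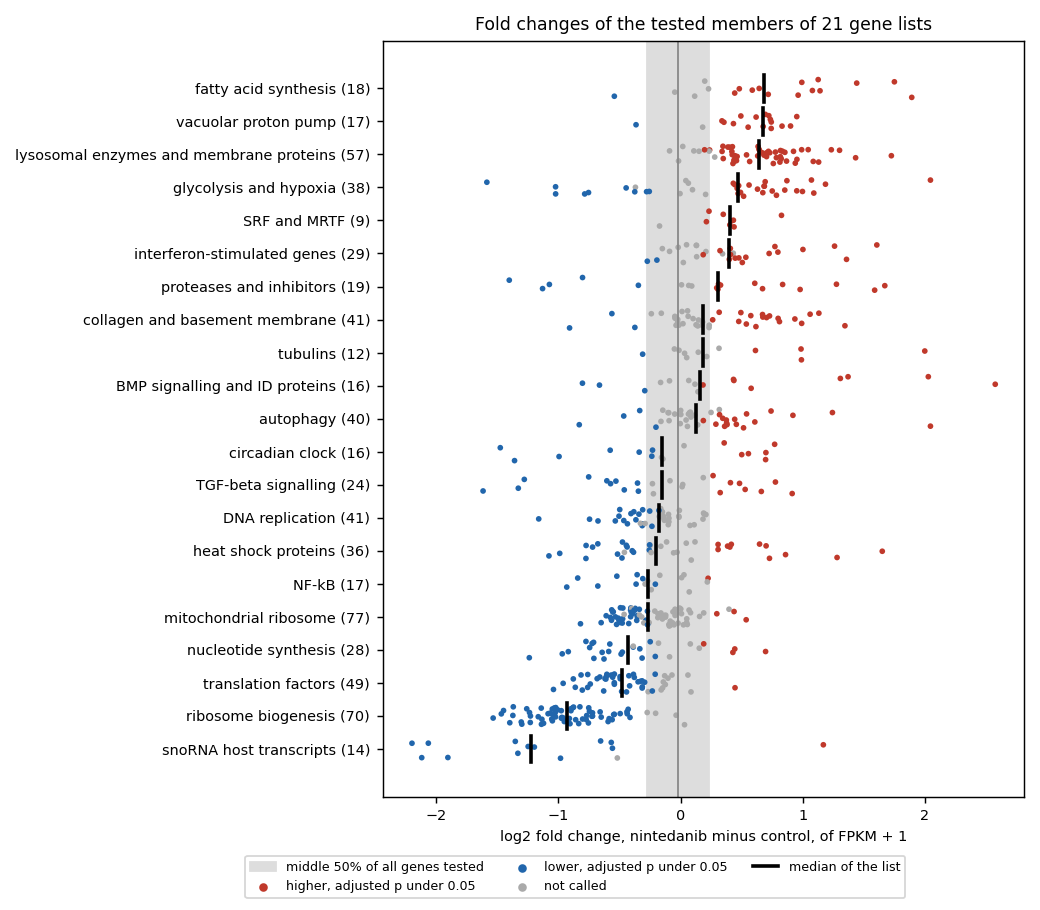
Log2 fold change (nintedanib minus control, of FPKM + 1) of every tested member of 21 gene lists, with the number tested in brackets. Points are genes, black bars list medians, and the grey band the middle 50% of all genes tested (-0.28 to 0.23); ribosome biogenesis (median -0.93) and snoRNA hosts (-1.22) lie to the left of it, the proton pump (0.68), fatty acid synthesis (0.68) and lysosomal genes (0.64) to the right.

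Lysosomal genes rose almost as a body. Of 57 lysosomal enzymes and membrane proteins tested (62 listed), 50 rose, 0 fell and 7 did not pass the test, with a median log2 fold change of 0.64; in 51 the groups did not overlap. The rise ran through every class: 22 of 23 glycosidases and sulfatases, 9 of 11 proteases, 7 of 9 lipases and activators and 12 of 14 membrane proteins. Ctsd, the aspartic protease cathepsin D (ENSMUSG00000007891, chromosome 7, 142375911 to 142388038; positions here and below are those of the deposited table, on GRCm38), was at 64.6, 72.5 and 69.8 FPKM in the controls and at 161, 164 and 165 FPKM with nintedanib (log2 fold change 1.23, SE 0.074, adjusted p = 5.73e-07). Neu1, the lysosomal sialidase, was at 4.45, 5.02 and 4.82 FPKM and then at 14, 14.4 and 15.2 FPKM (log2 fold change 1.43, SE 0.0734, adjusted p = 2.09e-07). In both genes every treated library lay above every control library. The largest rise of the list was that of Gpnmb (1.72), a membrane protein that MiT/TFE factors are known to induce. The acid lipase Lipa (1.30), the cystine exporter Ctns (1.09) and the mannosidase Manba (1.04) also rose more than 2-fold. The 7 that did not pass included the protease Ctsl (log2 fold change -0.09, adjusted p = 0.376) and the receptor Scarb2 (-0.02, adjusted p = 0.866).

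The vacuolar proton pump, which acidifies the lysosome, moved with them. Of its 17 tested subunits and accessory proteins (24 listed), 15 rose and 1 fell. Atp6v0d1, a subunit of the membrane sector, was at 45.4, 46.9 and 47.6 FPKM in the controls and 87.9, 85.9 and 99.7 FPKM with nintedanib (log2 fold change 0.95, SE 0.0826, adjusted p = 6.07e-06). Atp6v1a, the catalytic subunit, was at 19.7, 18.7 and 19.5 FPKM and then 36.1, 34.5 and 40.2 FPKM (log2 fold change 0.90, SE 0.0721, adjusted p = 3.43e-06). Neither gene overlapped between groups. The subunit that fell was Atp6v1g2 (-0.36), and Atp6v1g1 did not pass.

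The genes that control lysosomal transcription through nutrient sensing were less uniform. MiT/TFE factors are held in the cytoplasm by mTORC1 at the lysosome, a step that needs the Rag GTPases and the folliculin complex. In this list of 24 tested genes, 13 rose and 3 fell. Flcn, which encodes folliculin, was at 19.6, 18.8 and 18.4 FPKM in the controls and 29.1, 30.8 and 29.4 FPKM with nintedanib (log2 fold change 0.62, SE 0.0729, adjusted p = 4.75e-05). Its partners Fnip1 (0.65) and Fnip2 (0.73), the GTPase Rragc (0.46) and the lysosomal calcium channel Mcoln1 (0.68) rose as well. Those that fell were the factor Tfe3 (-0.53), the mTORC1 activator Rheb (-0.57) and the mTORC1 subunit Rptor (-0.28). Tfeb was at 1.39, 1.56 and 1.73 FPKM in the controls and 2.08, 2.08 and 2.07 FPKM with nintedanib (log2 fold change 0.27, SE 0.0931, adjusted p = 0.0364), and its call was lost without any 1 library but the third control (log2 fold change 0.22 to 0.27). Mitf did not pass (adjusted p = 0.331).

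Of 40 autophagy genes, which deliver cargo to the lysosome, 17 rose and 4 fell. Gabarap, a ubiquitin-like protein of the autophagosome membrane, was at 79.7, 83.9 and 80.04 FPKM in the controls and 157, 152 and 154 FPKM with nintedanib (log2 fold change 0.92, SE 0.0611, adjusted p = 1.02e-06). Optn, a cargo receptor, went from 5.67, 5.57 and 4.97 to 14.1, 14.8 and 13.5 FPKM (log2 fold change 1.24, SE 0.0841, adjusted p = 1.16e-06), and the mitophagy receptor Bnip3 from 9.25, 11.6 and 10.5 to 38.5, 41.4 and 61.2 FPKM (log2 fold change 2.04, SE 0.18, adjusted p = 6.53e-06). No control library reached the lowest treated one in any of them, and the third nintedanib library was the highest for Bnip3. Sqstm1, the receptor p62, went the other way, from 438, 532 and 446 FPKM to 257, 271 and 265 FPKM (log2 fold change -0.83, SE 0.11, adjusted p = 0.000121), with no overlap. The initiating kinases Ulk1 (0.36) and Ulk2 (0.37) rose and the conjugation factor Atg12 (-0.46) fell, while Becn1, Atg5 and Atg7 were among 19 that did not pass.

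MiT/TFE factors are known to bind an E-box with the letters CACGTG, which MYC-MAX and the clock factors bind too, so the promoters of these genes are shown with those of genes that fell. Promoter windows of 250 bases before to 50 after the start were taken from RefSeq (GRCm38.p6) and searched on both strands; the letters read the same on both. A window was found for 8674 of the genes tested, and 12.2% of these genes had CACGTG in it. The share was 34.8% of the 46 lysosomal genes with a window, 33.3% of 12 pump genes, 30.4% of 23 in the MiT/TFE and folliculin list, 15.2% of 33 autophagy genes and 16.4% of 61 ribosome biogenesis genes. Among 2 other lists that mostly fell, it was 26.3% of 38 translation factors and 23.1% of 26 nucleotide synthesis genes, so shares above that of all genes were not limited to lists that rose. Clock genes, which changed in both directions, had the highest share of the lists counted (35.7% of 14), and lipid droplet genes had 29.4% of 17. The windows were also searched for 2 other motifs, not reported here. TCACGTG, the same letters after a T, on either strand, was in 7.37% of all genes with a window, 32.6% of lysosomal genes, 21.1% of translation factors, 15.4% of nucleotide synthesis genes and 6.56% of ribosome biogenesis genes. A match is a run of letters and no evidence of binding. Among all changed genes the share with CACGTG was 14.2% of those that rose and 12.4% of those that fell. With TCACGTG it was 10.1% of those that rose and 5.77% of those that fell. The windows below, 36 bases each and read 5′ to 3′ on the gene's strand with the E-box in capitals, come first from 8 lysosomal and pump genes that rose, a selection, and then from 8 ribosome biogenesis genes that fell, all of that list whose E-box lies at least 15 bases inside the window. A T comes before the E-box in each of the first 8 and in Nop2, Rrn3 and Utp18 of the second 8.
Ctsd (chr7:142387905-142387940, minus strand): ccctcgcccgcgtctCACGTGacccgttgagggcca
Ctsa (chr2:164833763-164833798, plus strand): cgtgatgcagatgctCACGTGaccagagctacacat
Gla (chrX:134601179-134601214, minus strand): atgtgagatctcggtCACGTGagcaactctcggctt
Naglu (chr11:101070006-101070041, plus strand): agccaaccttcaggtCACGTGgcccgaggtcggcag
Dpp7 (chr2:25356385-25356420, minus strand): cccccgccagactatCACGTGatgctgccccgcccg
Lamp1 (chr8:13159131-13159166, plus strand): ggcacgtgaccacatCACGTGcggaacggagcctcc
Atp6v0d1 (chr8:105566047-105566082, minus strand): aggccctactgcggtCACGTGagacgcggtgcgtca
Atp6v0e (chr17:26676384-26676419, plus strand): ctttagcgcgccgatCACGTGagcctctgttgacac
Nop2 (chr6:125131808-125131843, plus strand): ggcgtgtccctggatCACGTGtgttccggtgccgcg
Rrn3 (chr16:13780636-13780671, plus strand): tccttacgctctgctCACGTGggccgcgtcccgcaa
Utp18 (chr11:93885766-93885801, minus strand): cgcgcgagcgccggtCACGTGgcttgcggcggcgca
Utp4 (chr8:106893640-106893675, plus strand): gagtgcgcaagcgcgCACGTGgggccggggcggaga
Wdr43 (chr17:71616217-71616252, plus strand): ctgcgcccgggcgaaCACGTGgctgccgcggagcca
Pes1 (chr11:3963962-3963997, plus strand): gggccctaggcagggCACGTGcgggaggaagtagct
Ltv1 (chr10:13193089-13193124, minus strand): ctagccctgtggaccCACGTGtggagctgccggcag
Nle1 (chr11:82908352-82908387, minus strand): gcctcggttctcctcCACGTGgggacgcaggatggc
Of these, Ctsa, the protective protein cathepsin A, rose by 0.87 and the membrane glycoprotein Lamp1, whose window holds another copy of the letters left in lower case, by 0.78, and the rRNA methyltransferase Nop2 fell by 1.30 on the log2 scale.

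**Figure D2:**
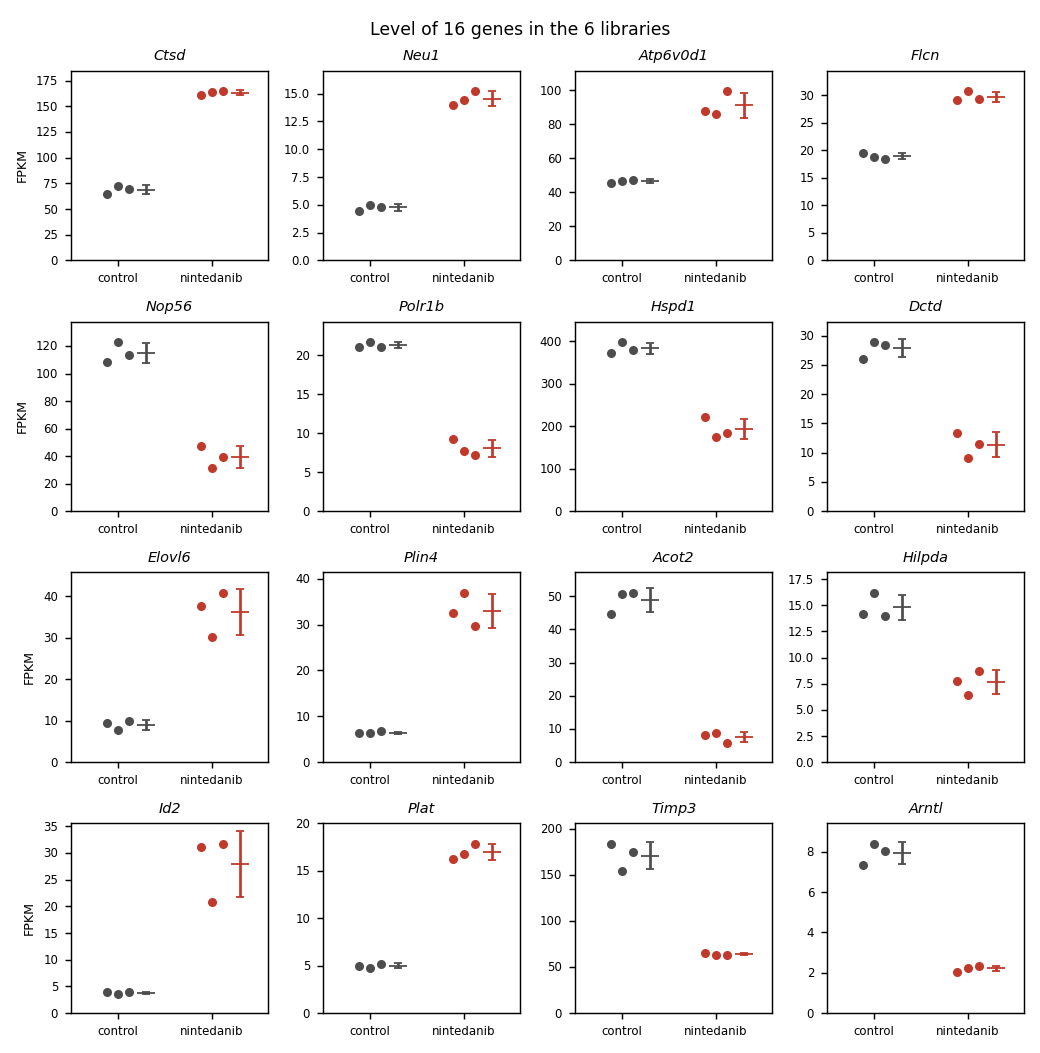
FPKM of 16 genes in each of the 3 control (grey) and 3 nintedanib libraries (red), with the mean and SD beside the points; every axis starts at 0. The groups do not overlap in any of the 16 genes.

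Genes that make ribosomes fell almost without exception. Of 70 ribosome biogenesis genes, all of them tested, 66 fell, 0 rose and 4 did not pass, with a median of -0.93; 28 fell at least 2-fold. All 20 small subunit and all 25 large subunit processing factors fell, as did 9 of 10 proteins of the snoRNA particles that modify ribosomal RNA, 7 of 10 RNA polymerase I subunits and factors and 5 of 5 nucleolar chaperones. Nop56, a core protein of box C/D particles (ENSMUSG00000027405, chromosome 2, 130274430 to 130279313), was at 108, 123 and 113 FPKM in the controls and at 47.3, 31.7 and 39.4 FPKM with nintedanib (log2 fold change -1.53, SE 0.134, adjusted p = 6.3e-06). Dkc1, the pseudouridine synthase of H/ACA particles, went from 45.2, 39.4 and 42.7 to 17.4, 12.2 and 14.9 FPKM (log2 fold change -1.47, SE 0.11, adjusted p = 2.16e-06). Polr1b, the second largest RNA polymerase I subunit, went from 21.1, 21.7 and 21 to 9.26, 7.73 and 7.2 FPKM (log2 fold change -1.30, SE 0.0962, adjusted p = 1.88e-06). All treated libraries lay below all controls in these genes, and the first treated library was the least reduced. The abundant nucleolar proteins nucleolin (Ncl, -1.14) and nucleophosmin (Npm1, -0.96) fell, and so did the polymerase I factors Ubtf (-0.72) and Rrn3 (-0.41). The genes that did not pass were Nop10, Znrd1, Polr1d and Taf1c.

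Non-coding transcripts that carry snoRNAs in their introns fell as well. Small nucleolar RNAs guide the modification of ribosomal RNA, and their host genes are spliced transcripts that often belong, as the ribosomal protein genes do, to the class with an oligopyrimidine start. This list (genes named Snhg, with Gas5, Zfas1 and Epb41l4aos) was put together after the values were seen. Of its 14 tested members, 12 fell and 1 rose, and 8 fell at least 2-fold. Snhg12 (chromosome 4, 132308623 to 132311024) was at 24.2, 35.3 and 26.4 FPKM in the controls and at 4.97, 4.95 and 6.35 FPKM with nintedanib (log2 fold change -2.20, SE 0.161, adjusted p = 1.83e-06). Zfas1 went from 43.4, 56.5 and 44.8 to 12.9, 9.19 and 9.09 FPKM (log2 fold change -2.12, SE 0.193, adjusted p = 8.3e-06) and Snhg5 from 54.8, 65 and 60.3 to 15, 10.6 and 15.6 FPKM (log2 fold change -2.06, SE 0.145, adjusted p = 1.42e-06). The groups did not overlap for these, nor for Snhg1 (-1.90) and Gas5 (-1.33). Snhg6 overlapped, with a treated library at 34.2 FPKM and a control at 33.1 FPKM (log2 fold change -0.98, SE 0.259, adjusted p = 0.00962). The member that rose was Snhg18, from 3.57, 3.15 and 3.31 to 7.85, 8.45 and 10.1 FPKM (log2 fold change 1.17, SE 0.0859, adjusted p = 1.83e-06). The snoRNA genes themselves, which are short and rest on few fragments, fell in 16 cases of 106 and rose in 2. Both are smaller shares than over all genes tested (23.4% lower and 20.4% higher). Of the 16, 13 fell at least 2-fold, a size of fall met by 2.33% of all genes, and the median of the 106 was -0.27. Without the second control library 8 fell. Without the third nintedanib library, whose small RNA share was low, 13 fell, and the part of that share in these values was not tested.

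**Figure D3:**
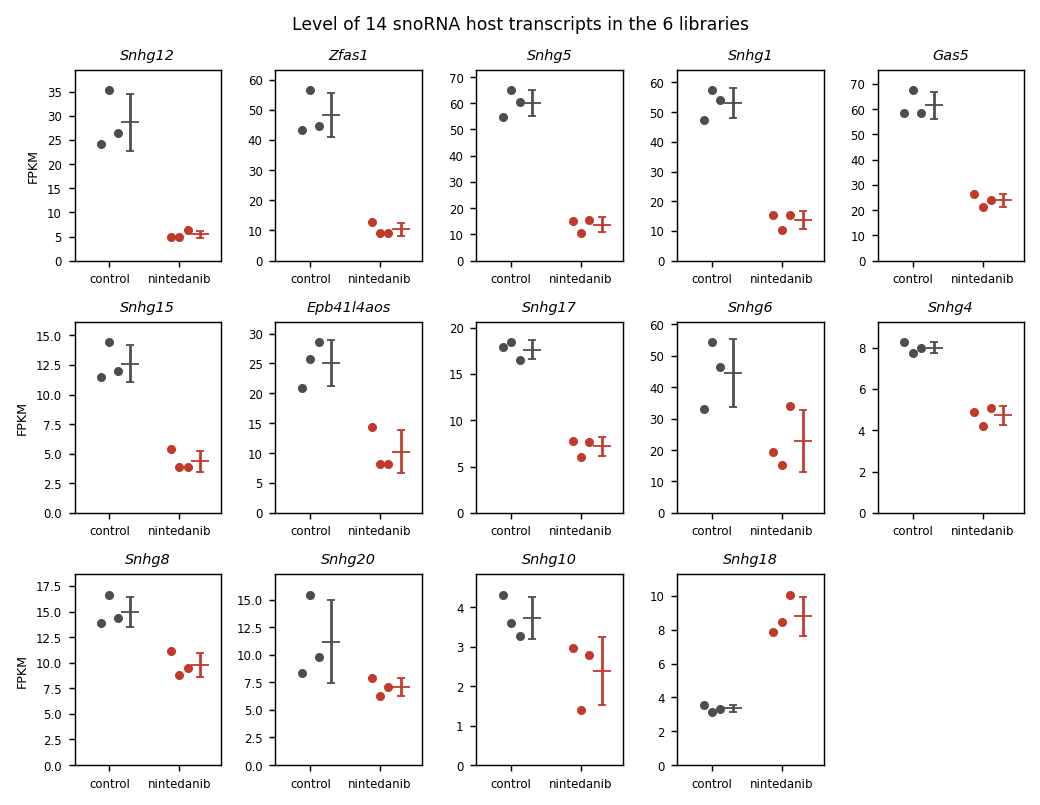
FPKM of the 14 tested snoRNA host transcripts in the 3 control (grey) and 3 nintedanib libraries (red), with mean and SD; axes start at 0. Snhg18 alone is higher with nintedanib, and Snhg6 is the only gene that passed the test with overlapping groups.

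The factors that translate mRNA and the enzymes that make nucleotides fell alongside. Of 49 translation factors, 38 fell and 1 rose (median -0.48). Eef2, the elongation factor that moves the ribosome along mRNA, was at 1242, 1346 and 1293 FPKM in the controls and 959.5, 954 and 846 FPKM with nintedanib (log2 fold change -0.49, SE 0.0969, adjusted p = 0.00171). Eif4ebp1, a repressor of cap-dependent initiation and a known ATF4 target, fell (-0.76) and its relative Eif4ebp2 was the member that rose (0.45). Of 28 nucleotide synthesis genes, 19 fell and 4 rose. Purine genes fell in 11 of 15, among them the first committed enzyme Ppat (-0.71), Pfas (-0.92), Gart (-0.77) and Impdh2 (-0.72). Pyrimidine genes fell in 8 of 13, led by Dctd, the dCMP deaminase, which went from 26, 28.9 and 28.4 to 13.4, 9.14 and 11.5 FPKM (log2 fold change -1.24, SE 0.118, adjusted p = 1.11e-05). The salvage enzyme Hprt went up instead, from 104, 114 and 114 to 145, 129 and 182 FPKM (log2 fold change 0.44, SE 0.107, adjusted p = 0.00595). Neither of these 2 genes overlapped between groups.

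Mitochondrial protein making and folding followed in part. Of 77 mitochondrial ribosome subunits tested, 34 fell and 3 rose (median -0.27), while of 80 nuclear genes of the respiratory chain 7 rose and 2 fell, 14 rose without the third nintedanib library, which had the highest mitochondrial share, and 17 with a common FPKM sum. Heat shock proteins split by class. Of 13 chaperonins and mitochondrial chaperones, 11 fell and 0 rose, and of 23 cytosolic heat shock genes 11 rose and 4 fell. Hspd1, the mitochondrial chaperonin, was at 373, 399 and 379 FPKM in the controls and 221, 175 and 185 FPKM with nintedanib (log2 fold change -0.99, SE 0.105, adjusted p = 2.48e-05), and the mitochondrial Hsp70 gene Hspa9 went from 290.02, 308 and 301 to 154, 136 and 134 FPKM (log2 fold change -1.08, SE 0.0741, adjusted p = 1.25e-06). The cytosolic chaperonin subunits Cct4 (-0.77), Cct6a (-0.77) and Cct3 (-0.68) fell. The small heat shock protein Cryab went from 36.4, 37.9 and 40.4 to 98.1, 95.9 and 88.7 FPKM (log2 fold change 1.28, SE 0.089, adjusted p = 1.33e-06). In none of these genes did the groups overlap. Hspa1b rose too (1.65), but it has a near-identical copy, Hspa1a, and how fragments were divided between them is uncertain.

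Of the regulators of the G1 step, Myc and Ccnd1 fell more than 2-fold. The growth regulator Myc, at 169.99, 176 and 182 FPKM in the controls, was at 41.2, 37.9 and 36.1 FPKM with nintedanib (log2 fold change -2.17, SE 0.0852, adjusted p = 6.26e-08). Ccnd1, the cyclin that carries growth factor signals to the cell cycle (chromosome 7, 144929931 to 144939925), went from 160.4, 151 and 156 to 78, 71.3 and 66.5 FPKM (log2 fold change -1.11, SE 0.0821, adjusted p = 1.95e-06). Both fell below every control in all 3 treated libraries. Of 23 G1 genes tested 8 fell and 4 rose. The cyclin Ccnd2 (-0.70) fell, together with E2F factors such as E2f4 (-0.69) and E2f2 (-0.55) and the inhibitor Cdkn1a (-0.63); the inhibitor Cdkn1b (0.27) and the pocket protein Rbl2 (0.54) rose. The number that rose was 2 without any of the first or the third control or the first or second nintedanib library.

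Few mitosis or replication genes rose, against 20.4% of all genes. Mitosis genes fell about as often as all genes did (23.4%), and replication genes at a share that changed with the libraries used. Of 41 replication genes 18 fell and 0 rose (median -0.17), led by the origin recognition subunit Orc2 (-1.16) and the licensing factor Cdt1 (-0.74), but 8 fell without the second nintedanib library, 11 without the third control and 11 fell and 2 rose with libraries rescaled to a common FPKM sum. Pcna, the sliding clamp, did not pass, at 146, 159 and 157 FPKM in the controls and 168, 132 and 134 FPKM with nintedanib (log2 fold change -0.10, SE 0.114, adjusted p = 0.507). Of 48 mitosis genes 12 fell and 1 rose, 7 fell without the second nintedanib or the third control library, and 5 fell and 3 rose with a common FPKM sum. The proliferation marker Mki67 and the mitotic kinase Cdk1 were among the 35 that did not pass.

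Most fatty acid synthesis genes rose. Of 18 tested (20 listed), 13 rose and 1 fell, with a median of 0.68. Elovl6, the elongase of long saturated fatty acids (chromosome 3, 129532355 to 129638495), was at 9.4, 7.68 and 9.9 FPKM in the controls and 37.6, 30.1 and 40.8 FPKM with nintedanib (log2 fold change 1.89, SE 0.198, adjusted p = 2.24e-05). Acss2, which makes acetyl-CoA from acetate, went from 2.68, 2.61 and 2.78 to 10.4, 11.5 and 12.4 FPKM (log2 fold change 1.75, SE 0.0961, adjusted p = 3.22e-07), and the fatty acid synthase gene Fasn from 30.7, 27.3 and 30.4 to 88.9, 78.1 and 78.4 FPKM (log2 fold change 1.44, SE 0.151, adjusted p = 2.21e-05). Control and treated libraries did not overlap in these genes. The desaturases Scd2 (1.14), Fads2 (1.13) and Scd1 (0.96), the citrate carrier Slc25a1 (1.08) and the citrate lyase Acly (0.99) rose, and Fads3 was the member that fell (-0.54). SREBP factors are known to drive many of these genes as they do the sterol enzymes, and the transcript of one of them, Srebf1 (0.44), rose.

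Genes for storing and burning fat did not share 1 direction. Of 19 lipid droplet and triglyceride genes 7 rose and 3 fell. Plin4, a droplet coat protein, was at 6.35, 6.25 and 6.72 FPKM in the controls and 32.4, 36.9 and 29.6 FPKM with nintedanib (log2 fold change 2.19, SE 0.1, adjusted p = 1.22e-07), and Lpin1, a phosphatidate phosphatase, went from 1.68, 1.39 and 1.58 to 4.57, 5.67 and 5.86 FPKM (log2 fold change 1.31, SE 0.116, adjusted p = 6.43e-06). The hypoxia-inducible droplet protein Hilpda went down, from 14.2, 16.2 and 14 to 7.78, 6.44 and 8.72 FPKM (log2 fold change -0.87, SE 0.126, adjusted p = 0.000211). Each of the 3 separated the groups. The coat protein Plin2 did not pass (adjusted p = 0.331). Among 29 fatty acid oxidation genes and PPAR targets 16 rose and 3 fell, with the carnitine transferase Cpt1a (0.64) among the first and Angptl4 (-1.16) among the second. Of 5 acyl-CoA thioesterase genes tested (13 listed), 1 rose, 1 fell and 3 did not pass. Acot2, a thioesterase that frees fatty acids inside mitochondria (chromosome 12, 83987861 to 83993873), had one of the largest falls of all genes, from 44.5, 50.6 and 51 to 8.25, 8.67 and 5.8 FPKM (log2 fold change -2.55, SE 0.168, adjusted p = 9.54e-07). Its relative Acot13 went from 23, 22.2 and 21.5 to 42.9, 40.8 and 49.96 FPKM (log2 fold change 0.97, SE 0.105, adjusted p = 2.87e-05), with no overlap in either gene.

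Glycolytic and hypoxia genes rose more often than they fell, with a median of 0.47. Of 38 tested, 23 rose and 9 fell, with Aldoa counted under each of its 2 identifiers. Falls were about as frequent as over all genes (23.4%) and rises more frequent (20.4% over all genes). Ldha, lactate dehydrogenase A, was at 262, 299 and 277 FPKM in the controls and 622, 502 and 555 FPKM with nintedanib (log2 fold change 0.997, SE 0.107, adjusted p = 2.53e-05), and Pdk1, the kinase that shuts off pyruvate dehydrogenase, went from 8.79, 8.45 and 8.15 to 16.8, 14.6 and 17 FPKM (log2 fold change 0.85, SE 0.0783, adjusted p = 8.66e-06). In contrast Hk2, the hexokinase that starts glycolysis, fell from 13.6, 15.2 and 14.8 to 9.82, 7.44 and 7.01 FPKM (log2 fold change -0.78, SE 0.108, adjusted p = 0.000151), and the HIF target Vegfa from 55.4, 62.5 and 57.3 to 35.4, 35.9 and 31.5 FPKM (log2 fold change -0.75, SE 0.078, adjusted p = 2.06e-05). None of these overlapped between groups. The oxidoreductase Ero1l (-1.02) and the mTORC1 inhibitor Ddit4 (-1.02) were other members that fell, and the lactate exporter Slc16a3 (0.87) another that rose. Of 14 carbonic anhydrase and pH transport genes, 6 rose and 4 fell, and they held the largest fall of all named genes: the secreted carbonic anhydrase Car6 went from 24.3, 31.2 and 21.6 to 1.39, 1.4 and 1.63 FPKM (log2 fold change -3.42, SE 0.182, adjusted p = 2.6e-07). The cytosolic Car13 went from 15.7, 14.4 and 17.2 to 37.9, 30.9 and 41.6 FPKM (log2 fold change 1.16, SE 0.107, adjusted p = 8.76e-06). Both genes separated the groups, in opposite directions.

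ID proteins lack a DNA-binding region and hold basic helix-loop-helix factors off DNA, and they are standard readouts of BMP signalling. The 3 ID genes tested rose and Id4 was too low to be tested (at most 0.579 FPKM). Id2 was at 3.85, 3.58 and 3.87 FPKM in the controls and 31.1, 20.7 and 31.7 FPKM with nintedanib (log2 fold change 2.57, SE 0.198, adjusted p = 2.54e-06). Id3 (chromosome 4, 136143497 to 136145755) went from 16.3, 20.6 and 17.9 to 97.2, 63.2 and 74.7 FPKM (log2 fold change 2.03, SE 0.187, adjusted p = 9.08e-06) and Id1 from 49.7, 51.5 and 50.4 to 192, 104 and 116 FPKM (log2 fold change 1.37, SE 0.234, adjusted p = 0.000685). The groups did not overlap, though the treated libraries varied: the first was highest for Id1 and Id3 and the second lowest for all 3. The BMP-induced inhibitor Smad6 went from 5.6, 5.03 and 5.15 to 20.1, 12.2 and 12.3 FPKM (log2 fold change 1.31, SE 0.234, adjusted p = 0.000932), while Smad7, which TGF-beta induces, went from 16.5, 19.4 and 15.7 to 13.2, 8.91 and 6.96 FPKM (log2 fold change -0.80, SE 0.207, adjusted p = 0.00854), neither with overlap. Over all 16 BMP and ID genes tested (31 listed), 8 rose and 3 fell. Of the 5 ligands and antagonists tested, with Smad6 and Smad7 counted here, 4 rose and 1 fell. Of the 8 BMP receptors and other SMADs tested, 1 rose (Smad1, 0.18) and 2 fell (Acvr1, -0.66, and Acvr2a, -0.29). The call of Smad1 was lost without any 1 library but the third nintedanib one (log2 fold change 0.15 to 0.19), and that of Acvr2a without the first or the third control or the second nintedanib library (-0.29 to -0.25). The ligand genes Bmp2, Bmp4, Bmp6 and Bmp7 reached at most 0.0158, 0, 0.659 and 0 FPKM in any of the 6 libraries.

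TGF-beta genes changed in both directions, 8 of 24 higher and 10 lower. The receptors Tgfbr1 (0.32) and Tgfbr2 (0.53) and the ligand Tgfb2 (0.78) rose. Ltbp1, which holds latent TGF-beta in the matrix, went from 14.3, 13.8 and 14.3 to 5.69, 5.24 and 4.86 FPKM (log2 fold change -1.28, SE 0.0597, adjusted p = 1.22e-07), without overlap, and the signal carrier Smad3 (-0.60) and the stress-induced ligand Gdf15 (-1.62) fell too. Of 8 target genes 5 fell and 2 rose. The target Skil (-0.53) fell and Tgfbi (0.66) rose. Ctgf, a target of both TGF-beta and YAP, did not pass (log2 fold change 0.01, adjusted p = 0.961). Of 7 Notch genes, 4 fell and 1 rose (Hes6, 0.61), with the ligand Jag1 (-0.94) and the target Nrarp (-0.61) among those that fell.

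Most changes among pericellular proteases and among collagen and basement membrane genes were rises, while protease receptors and inhibitors changed in both directions. Of 12 tested proteases, 8 rose and 1 fell. Plat, tissue plasminogen activator (chromosome 8, 22757727 to 22782844), was at 5, 4.7 and 5.21 FPKM in the controls and 16.2, 16.8 and 17.9 FPKM with nintedanib (log2 fold change 1.59, SE 0.0653, adjusted p = 6.26e-08), and Plau, urokinase, went from 4.94, 5.42 and 6.09 to 17.3, 19.8 and 21.9 FPKM (log2 fold change 1.67, SE 0.115, adjusted p = 1.25e-06). Mmp14, the membrane metalloprotease that activates Mmp2, went from 28.7, 30.1 and 30.6 to 72.3, 76.3 and 72 FPKM (log2 fold change 1.27, SE 0.0675, adjusted p = 2.6e-07). Every treated library exceeded every control here and for Mmp2 (0.98). The reverse held for the metalloprotease inhibitor Timp3, which went from 184, 154 and 174 to 65.4, 63.5 and 62.8 FPKM (log2 fold change -1.40, SE 0.0896, adjusted p = 8.33e-07), for the urokinase receptor Plaur, from 31.6, 40.9 and 34.3 to 18.6, 16.1 and 14.5 FPKM (log2 fold change -1.07, SE 0.115, adjusted p = 2.52e-05), and for the protease Mmp11 (-1.13). Of the 7 protease receptors and inhibitors tested, 3 rose (at most 0.83) and 4 fell. Timp1 (-0.80) was among those that fell and Timp2 (0.30) among those that rose.

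Of 41 collagen and basement membrane genes tested (75 listed), 18 rose and 3 fell. The collagen cross-linking enzyme Loxl1 went from 10.7, 10.4 and 11 to 33.6, 28.2 and 25.1 FPKM (log2 fold change 1.34, SE 0.118, adjusted p = 6.35e-06), the prolyl hydroxylase P4ha2 from 7.14, 8.36 and 7.78 to 17.8, 16.6 and 17.2 FPKM (log2 fold change 1.06, SE 0.0965, adjusted p = 8.14e-06), and Loxl4, a relative of Loxl1, from 68.3, 64.7 and 61.1 to 34.7, 33.9 and 33.4 FPKM (log2 fold change -0.91, SE 0.0808, adjusted p = 6.93e-06). In each the groups were apart. Of 18 collagen genes, 8 rose and 0 fell, including Col5a3 (1.13), Col1a2 (0.93) and Col7a1 (0.80), and Col1a1 did not pass (adjusted p = 0.746). Of 14 matricellular and IGF-binding proteins 5 rose and 6 fell, 3 fell with a common FPKM sum, and 3 rose without the third control or the second or the third nintedanib library. Wisp2, a secreted matricellular protein, went from 1.91, 2.04 and 1.66 to 12.3, 11.7 and 11.4 FPKM (log2 fold change 2.16, SE 0.0892, adjusted p = 6.26e-08), while osteopontin (Spp1), known to promote adhesion and invasion, went from 122, 133 and 125 to 34.4, 35.2 and 46.1 FPKM (log2 fold change -1.70, SE 0.12, adjusted p = 1.43e-06) and the IGF-binding protein Igfbp4 from 179, 201 and 186 to 79.6, 69.2 and 59.4 FPKM (log2 fold change -1.44, SE 0.129, adjusted p = 7.46e-06). These also had no overlap. Of 10 integrin genes tested, 2 rose and 1 fell.

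Tubulin and actin genes changed about as often as all genes did (43.7%). Of 12 tubulin genes 4 rose and 1 fell, and 7 rose with libraries rescaled to a common FPKM sum. Tubb2b went from 2.81, 2.02 and 2.45 to 14, 10.9 and 13.1 FPKM (log2 fold change 1.997, SE 0.114, adjusted p = 4.21e-07) and Tuba1a, an isotype abundant in neurons, from 202, 211 and 202 to 404, 367 and 457 FPKM (log2 fold change 0.99, SE 0.0857, adjusted p = 6.05e-06). Both separated the groups. Tubulin isotypes are close in sequence, and the sources used here do not say how shared fragments were assigned. Of 9 genes of the SRF and MRTF factors and their targets, 8 rose, the largest change being Filip1l (0.83); Srf itself did not pass (log2 fold change -0.17, adjusted p = 0.285), except without the first nintedanib library (log2 fold change -0.31). Of 26 actin and contractile genes 7 rose and 4 fell.

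Insulin and FoxO signalling, 31 genes, held 13 that rose and 3 that fell. FoxO factors are switched off by AKT, and among their known targets 7 of 12 rose and 1 fell. Tob1, an antiproliferative factor, was at 27.6, 26.3 and 28.9 FPKM in the controls and 54.3, 54.7 and 51.8 FPKM with nintedanib (log2 fold change 0.93, SE 0.0617, adjusted p = 9.98e-07), and the PI3K inhibitor Pik3ip1 went from 1.95, 2.6 and 1.78 to 3.65, 5.05 and 3.76 FPKM (log2 fold change 0.73, SE 0.136, adjusted p = 0.00121). Txnip, an inhibitor of glucose uptake, fell from 20.5, 22.8 and 23 to 5.53, 12.4 and 9.49 FPKM (log2 fold change -1.25, SE 0.32, adjusted p = 0.00811). The groups did not overlap in these 3, and the treated libraries spread widely for Txnip. The PI3K regulatory subunits Pik3r1 (0.74) and Pik3r3 (0.78) and the adaptor Irs1 (0.60) rose, and Insr and Igf1r did not pass.

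Among the kinases the drug is known to inhibit, 5 of 15 were high enough to be tested, 3 rose and 1 fell. The PDGF receptors Pdgfra (0.89) and Pdgfrb (0.58) and the FGF receptor Fgfr1 (0.41) rose, Src (-0.55) fell and Lyn did not pass (adjusted p = 0.932). The VEGF receptor Kdr reached at most 0.00605 FPKM. Among other receptors, Epha2, which binds ephrin-A ligands, fell from 110.1, 113 and 113 to 58.6, 47.5 and 44.7 FPKM (log2 fold change -1.15, SE 0.103, adjusted p = 7.32e-06), without overlap. Of 12 growth factor genes tested, 3 rose and 3 fell. Vegfb (0.57), Vegfd (0.69) and Btc (0.79) were those that rose, and Vegfa, Hbegf (-0.72) and Csf1 (-0.80) those that fell.

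Folding genes of the endoplasmic reticulum rose more often than they fell, and its sensors and degradation genes changed in both directions. Of 31 chaperone and unfolded protein response genes tested, 14 rose and 6 fell. Of the 17 chaperones and folding enzymes 9 rose, among them the disulfide isomerases Pdia3 (0.45) and P4hb (0.41), and 2 fell, Ero1l (-1.02) and Hspa5; the median of the class was 0.41. Of the 14 sensors and degradation genes 5 rose and 4 fell. Hspa5, the chaperone BiP, was at 324, 373 and 322 FPKM in the controls and 221, 178 and 220.3 FPKM with nintedanib (log2 fold change -0.72, SE 0.11, adjusted p = 0.000327), and the sensors Atf6 (-0.87) and Ern1 (-0.80) fell too. Sec61b, a subunit of the channel through which proteins enter the reticulum, went from 26, 34 and 25.4 to 52.6, 49 and 69.5 FPKM (log2 fold change 0.98, SE 0.166, adjusted p = 0.000677), and Edem2, which marks misfolded glycoproteins for removal, from 9.15, 12.2 and 9.95 to 22, 21.9 and 18.1 FPKM (log2 fold change 0.92, SE 0.0998, adjusted p = 2.72e-05). None of these genes overlapped between groups. The transcript of Xbp1 did not pass (adjusted p = 0.52).

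Iron and lipid peroxide genes changed in both directions. Of 21 tested, 7 rose and 5 fell. Tfrc, the transferrin receptor that brings iron into the cell, was at 14.4, 11.8 and 14 FPKM in the controls and 32.8, 18.3 and 26.2 FPKM with nintedanib (log2 fold change 0.86, SE 0.218, adjusted p = 0.0078). The iron importers Slc39a14 and Slc25a37 fell, the first from 17.9, 16.8 and 18.4 to 6.51, 5.7 and 5.95 FPKM (log2 fold change -1.41, SE 0.0614, adjusted p = 8.96e-08) and the second, which serves mitochondria, from 51, 47.9 and 48 to 18.6, 20.1 and 20.3 FPKM (log2 fold change -1.27, SE 0.0718, adjusted p = 3.77e-07). All 3 separated the groups, and the treated libraries spread most for Tfrc. Of the 10 tested genes of lipid peroxide control among the 21, 4 rose and 2 fell, both at least 2-fold (lowest log2 fold change -1.53). Slc7a11, the cystine importer that feeds glutathione and a known ATF4 target, is not counted among the 21 but among 27 NRF2 and antioxidant genes, of which 8 rose and 8 fell; it went from 7.87, 5.83 and 7.23 to 0.91, 1.1 and 1.08 FPKM (log2 fold change -1.97, SE 0.128, adjusted p = 8.95e-07). Acsl4 and Lpcat3, which place polyunsaturated fatty acids in membranes, rose (0.66 and 0.93), and Gpx4, which repairs oxidised lipids, did not pass, at 126, 139 and 125 and 137, 131 and 144 FPKM (log2 fold change 0.08, SE 0.104, adjusted p = 0.554).

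Targets of p53 changed about as often as all genes did (43.7%). Of 25 tested, 4 rose and 7 fell, and of 12 BCL2 family genes 1 rose and 3 fell. Plk2, a polo-like kinase and p53 target, was at 103, 111 and 108 FPKM in the controls and 46.5, 45.7 and 47.6 FPKM with nintedanib (log2 fold change -1.19, SE 0.068, adjusted p = 4.21e-07), and the pro-apoptotic Bbc3 (PUMA) went from 32.1, 40.8 and 33.5 to 16.8, 17.6 and 11.6 FPKM (log2 fold change -1.17, SE 0.162, adjusted p = 0.000157). The p53 target Ccng1 (0.53) and the pro-apoptotic Bak1 (0.40) rose, the latter not without the first control or the first or second nintedanib library (log2 fold change 0.28 to 0.38), and Mdm2, the p53 ubiquitin ligase, did not pass (log2 fold change 0.02, SE 0.0648, adjusted p = 0.841). Gadd45a went from 57.3, 81.4 and 65.4 to 11.9, 9.71 and 7.47 FPKM (log2 fold change -2.70, SE 0.202, adjusted p = 2.11e-06), while its relative Gadd45b went from 4.59, 6.87 and 4.59 to 11.6, 7.2 and 11.5 FPKM (log2 fold change 0.80, SE 0.215, adjusted p = 0.0108). Each of these was apart between groups, with the closest approach for Gadd45b.

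Interferon-stimulated genes rose more often than they fell. Of 29 interferon-stimulated genes tested (46 listed), 16 rose and 2 fell (median 0.40). Stat2, which carries the type I interferon signal, was at 2.5, 2.3 and 2.42 FPKM in the controls and 5.45, 6.26 and 5.77 FPKM with nintedanib (log2 fold change 1.001, SE 0.086, adjusted p = 5.77e-06), with no overlap. Isg15, a ubiquitin-like protein, did not pass (adjusted p = 0.596). Of 14 nucleic acid sensors and adaptors 9 rose and 2 fell, and 5 rose without the second nintedanib library. Tmem173 (0.50), which encodes STING, Tlr3 (0.53) and Tlr4 (0.75) rose, and the DNA sensor cGAS (Mb21d1) went from 2.64, 2.23 and 2.33 to 1.41, 1.53 and 1.56 FPKM (log2 fold change -0.44, SE 0.0957, adjusted p = 0.0032), lower in every treated library. Of 23 MHC class I and processing genes, 10 rose and 0 fell, and 6 rose without the first control library. The light chain B2m (0.68) and the heavy chain H2-K1 (0.41) rose, and H2-D1, Tap1 and Tap2 did not pass; class I heavy chains are close in sequence, so fragments may be shared between them.

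Ligands of immune checkpoints were split. Of 13 ligands tested (27 listed), 5 rose and 4 fell. Cd274, which encodes PD-L1, was at 1.55, 1.76 and 1.76 FPKM in the controls and 0.805, 0.871 and 0.966 FPKM with nintedanib (log2 fold change -0.51, SE 0.111, adjusted p = 0.00304), and the costimulatory ligand Icosl went from 3.6, 3.59 and 3.6 to 1.21, 1.16 and 1.31 FPKM (log2 fold change -1.04, SE 0.0701, adjusted p = 1.09e-06). Cd47, a signal against phagocytosis, went from 40.2, 37.3 and 37.8 to 21.8, 25.9 and 22.7 FPKM (log2 fold change -0.69, SE 0.0943, adjusted p = 0.000144), and Lgals9 rose from 43.4, 44.5 and 45.7 to 66.1, 74.3 and 83.9 FPKM (log2 fold change 0.73, SE 0.0785, adjusted p = 2.66e-05). No library of 1 group fell within the range of the other in these genes. Of 14 chemokine and cytokine genes tested (40 listed), 2 rose, 3 fell and 9 did not pass, a share of changes not far from that over all genes (43.7%). Among them were 8 chemokines, of which 0 rose and 1 fell. Csf1, the macrophage growth factor, went from 78.7, 86.2 and 79.8 to 51.2, 46 and 42.7 FPKM (log2 fold change -0.80, SE 0.0729, adjusted p = 8.38e-06) and the lymphocyte cytokine Il15 from 1.97, 2.12 and 1.28 to 3.5, 4.58 and 6.04 FPKM (log2 fold change 1.02, SE 0.182, adjusted p = 0.000902), both apart. Of 17 NF-kB genes 8 fell and 1 rose (Ikbkb, 0.23), with Relb (-0.93), Nfkb2 (-0.84) and Rela (-0.68) the largest falls, and 5 fell with libraries rescaled to a common FPKM sum.

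The authors' table assigns transcription factors to families. Of 816 factors tested, 107 rose and 228 fell, so that factors fell more often than they rose, also with libraries rescaled to a common FPKM sum (132 higher and 172 lower). The members named here, other than clock genes and Myc, were chosen after their values were seen. In the bZIP family, which holds AP-1 and the ATF factors, 18 of 33 fell and 8 rose. The clock output repressor Nfil3 fell from 19.9, 20.1 and 21 to 7.42, 6.2 and 8.5 FPKM (log2 fold change -1.36, SE 0.0951, adjusted p = 1.36e-06), and the AP-1 members Fosl2 (0.98) and Jund (0.73) rose. In the bHLH family 13 of 37 rose and 7 fell. Its falls included Myc, Tfap4 (-1.43) and the clock factor Arntl (BMAL1), which went from 7.34, 8.4 and 8.03 to 2.05, 2.25 and 2.33 FPKM (log2 fold change -1.47, SE 0.0878, adjusted p = 5.43e-07). The MAX-binding repressor Mxd4 rose from 4.2, 4.27 and 4.14 to 7.08, 10.5 and 9.21 FPKM (log2 fold change 0.92, SE 0.121, adjusted p = 0.000118). The groups were apart in each of these. The chromatin proteins Hmga1 and Hmga2 fell, Hmga1 from 361, 431 and 372 to 135, 96 and 61.3 FPKM (log2 fold change -2.05, SE 0.233, adjusted p = 3.93e-05) and Hmga2 from 20.004, 19 and 19.3 to 5.75, 5.89 and 6.01 FPKM (log2 fold change -1.57, SE 0.0781, adjusted p = 1.71e-07), with no overlap. Hmga1 has a near copy, Hmga1b, and how fragments were divided between them is uncertain. Of 16 clock genes 6 rose and 7 fell, and 4 fell without the third nintedanib library. The repressors Bhlhe40 (0.77) and Per3 (0.70) and the output factor Dbp (0.70) rose, Nr1d1 (-0.58) and Ciart (-0.99) fell, and Clock and Per2 did not pass.

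Among the 25 largest rises, Mvd, Acat2, Idi1, Fdps, Nsdhl, Lss and Insig1 belong to the sterol pathway or its control. Outside any list, the GPI-anchored surface protein Psca went from 2.52, 3.16 and 3.5 to 23.6, 18.6 and 17.5 FPKM (log2 fold change 2.36, SE 0.146, adjusted p = 6.41e-07) and its relative Ly6c1 from 159, 169 and 162 to 502, 539 and 616 FPKM (log2 fold change 1.75, SE 0.0826, adjusted p = 1.22e-07), a gene with near copies among which fragments may be shared. St3gal5, the enzyme that makes the ganglioside GM3, went from 4.14, 3.53 and 3.47 to 16.6, 14.6 and 16.3 FPKM (log2 fold change 1.84, SE 0.0804, adjusted p = 8.96e-08). These had no overlap, nor had the scaffold Akap12 (1.92), the adhesion molecule Mcam (1.84), the kinase Dmpk (1.80), the sorbitol dehydrogenase Sord (1.80) and the autophagy factor Trp53inp2 (1.76). Mcam was below 1 FPKM in the controls, where the added 1 shrinks its fold change.

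Among the 25 largest falls, Trib3, Ddit3, Ppp1r15a and Sesn2 are known ATF4 or stress-response genes, Etv4, Etv5, Fosl1 and Egr1 lie downstream of ERK, and Gadd45a is a growth arrest gene. The secreted factor Angptl6 went from 16.3, 23 and 17.4 to 1.95, 1.71 and 1.59 FPKM (log2 fold change -2.84, SE 0.157, adjusted p = 3.33e-07). The corneodesmosome protein Cdsn went from 51.2, 61.1 and 48.9 to 7.58, 9.32 and 8.39 FPKM (log2 fold change -2.53, SE 0.156, adjusted p = 6.39e-07), the one fall among 12 keratin, desmosome and cornified envelope genes, of which 6 rose, Krt19 (0.86), Jup (0.59) and Pkp2 (0.52) among them, and 5 did not pass. Prkg2, a cGMP-dependent kinase, went from 14.7, 15.9 and 14.8 to 2.51, 2.23 and 2.92 FPKM (log2 fold change -2.19, SE 0.0897, adjusted p = 6.26e-08). All 3 were lower in every treated library, as were Sh2d6 (-2.74), Trim46 (-2.34), Cyb5r1 (-2.17) and the glycogen-binding protein Stbd1 (-2.15). The remaining named falls were Snord83b, from 7.05, 9.22 and 9.24 to 0.597, 0.599 and 2.33 FPKM, and Snord35a, from 2.68, 4.5 and 9.65 to 0.623, 0.626 and 0 FPKM, short genes inside ribosomal protein genes. The call of Snord35a was lost without the second or the third library of either group (log2 fold change -2.23 to -1.70).

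The effect in irradiated cells, combination minus radiation, shares no library with it, only the estimate of the spread. It passed the test in 4396 genes (35.8%), and 3392 genes were called in both comparisons in the same direction, 63.1% of those called without radiation and 77.2% of those called with it. Another 8 were called in opposite directions. Of the 497 genes changed at least 2-fold without radiation, 489 had the same sign and 448 were called in the same direction in irradiated cells. Medians of the lists in irradiated cells were 0.64 for lysosomal genes, 0.83 for the proton pump, 0.73 for fatty acid synthesis, -0.52 for ribosome biogenesis, -0.76 for snoRNA hosts, -0.23 for translation factors and -0.01 for the mitochondrial ribosome. The difference between the effects was tested gene by gene and passed in 1 of 12279 genes (0.00814%), so the smaller changes of the ribosome lists are values and not tested differences. The median of the 70 ribosome biogenesis genes was less negative in irradiated cells, with 0 of them past the test of the difference. These genes were measured in the same libraries and are not separate observations. Medians of other lists also differed, upward for the nuclear respiratory chain (0.06 without and 0.35 with radiation) and downward for interferon-stimulated genes (0.40 and 0.18). At an unadjusted p under 0.05 the difference was met by 1638 genes. The gene that passed was Egr1, an immediate early factor. It was at 9.24, 8 and 9.13 FPKM in the controls, 0.6, 0.779 and 0.646 FPKM with nintedanib, 2.94, 3.51 and 3.96 FPKM with radiation and 0.744, 0.787 and 0.744 FPKM with both. The fall was -2.55 without radiation and -1.34 with it, a difference of 1.21 (SE 0.136, adjusted p = 0.0255). Without the drug its level in irradiated cells lay below every control. When 1 control or nintedanib library was left out, the limma adjusted p lay between 0.04995 and 0.184. It was under 0.05 only without the first nintedanib library. The difference itself stayed between 1.17 and 1.27 in those fits, so the call was easily lost while the size changed little.

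**Figure D4:**
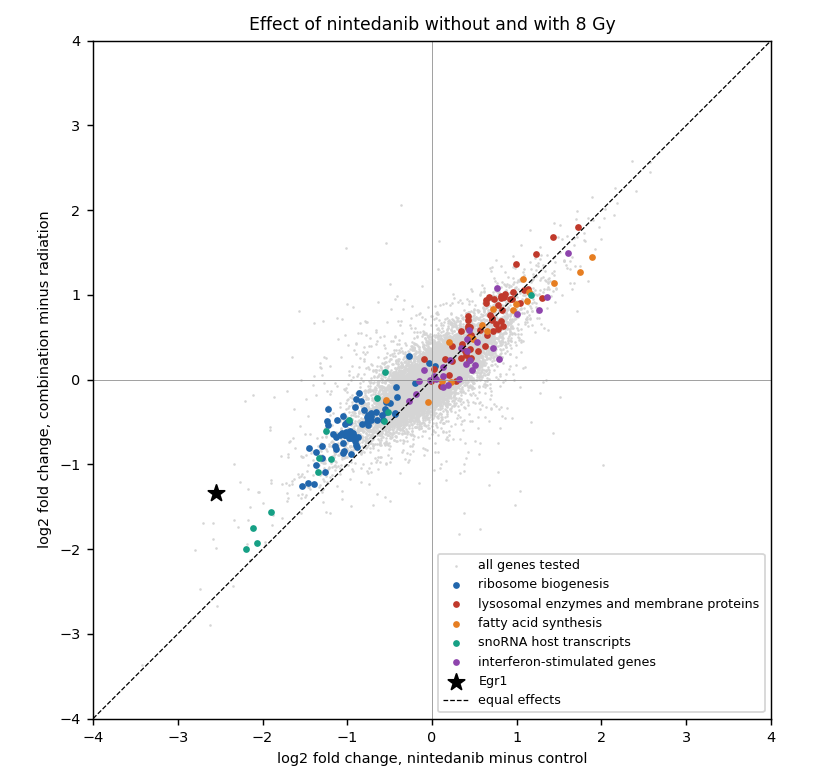
Log2 fold change of nintedanib without radiation (horizontal) and with 8 Gy (vertical); grey points are the 12279 genes tested and coloured points the members of 5 gene lists. The 70 ribosome biogenesis genes have medians of -0.93 without and -0.52 with radiation, and Egr1 (star) is the only gene whose difference passed the test.

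Some values rest on gene models that overlap another. The sources used here do not give the strand setting of the authors' counting, so fragments of a gene and of a gene on the opposite strand cannot be told apart. Filip1l lies within Cmss1 on the other strand, which fell from a mean of 12.3 to 4.41 FPKM while Filip1l rose. Acss2 shares 22544 bases, introns included, with Gss, and Orc2 shares 19046 with Nif3l1. Atp6v1g2 overlaps Nfkbil1, which went from a mean of 11.9 to 6.36 FPKM, and Trim46 overlaps Krtcap2, which went from 75.1 to 37.1 FPKM. The p-values measure the spread between 3 libraries a group, and an exact permutation test of a single gene with 3 against 3 cannot go below p = 0.1.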

How the data were processed

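MC38 libraries were made from 1.3 µg of total RNA extracted with RNeasy mini plus, with the SMARTER mRNA-seq kit, per the labels' protocols. Values are FPKM per gene as the authors deposited them; GRCm38 and mm10 are the builds in the submitters' processing notes, and aligner, counter, annotation release and strand are not stated in those sources. Each nonzero value was a whole multiple, within 0.01, of 1 fragment's worth in its library (100% of values), and the recovered fragments gave the depths. The authors' scaling per library is not described: fragments per FPKM implied 0.970 to 0.982 of the library total in controls and 1.00 to 1.03 with nintedanib.

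Log2(FPKM + 1) of genes with FPKM of at least 1 in at least 3 of the 6 libraries was fitted with limma 3.58.1 (R 4.3.3, trended empirical Bayes, all 12 libraries, 8 residual degrees of freedom, two-sided). The Benjamini-Hochberg adjustment ran over all 12279 genes. No pair of replicates of a group agreed within sampling noise (chi-square per gene 4.30 to 30.2). P-values measure the spread between these libraries, which may in part be technical. Same-numbered control and nintedanib libraries did not deviate together (correlations -0.15 to 0.07).

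The comparison and the 57 gene lists were chosen with earlier results of these data known, and the snoRNA host list after its values were seen. Genes named are list members, the drug's targets, the gene whose effect differed with radiation, and the 25 largest changes each way among changed genes that had no overlap and a group mean of 5 FPKM or more, predicted genes passed over; a few genes within this rule are not reported here. Alternatives were another pseudocount, other filters, common FPKM sums, protein-coding genes only, the 6 libraries alone, voom on the recovered fragments, a replicate block, and each library left out.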

Additional observations from a re-analysis of the deposited data

Results flagged for a closer look

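The effect of nintedanib on Egr1 differed with radiation: the interaction was 1.21 on the log2 scale (SE 0.136, limma adjusted p = 0.0255), from -2.55 without radiation to -1.34 with it, lower in 3 of 3 treated libraries in both. It kept its sign in all alternatives in which it was computed, between 1.10 and 1.48. The limma adjusted p was 0.0613 with a pseudocount of 0.1, 0.0539 with no filter, 0.0614 by voom and 0.159 with the replicate block. It stayed under 0.05 with FPKM of at least 5 (0.0192) and with protein-coding genes only (0.00356). The same held with a common FPKM sum (0.0298) and a common sum of protein-coding genes (0.0494). It was 0.118 without the first, 0.0538 without the second and 0.184 without the third control, and 0.04995, 0.0584 and 0.0515 without the first, the second and the third nintedanib library.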

How the results depend on the processing

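No named gene that was called as reported or under an alternative changed direction, and at most 7 of 283 lost their call under any 1 alternative (with no filter on low values). With a pseudocount of 0.1 the genes changed at least 2-fold came to 825 and with voom on the recovered fragments to 894, against 497; their total, 5372, stayed within 1.5 times everywhere (4220 to 5523). Higher genes made up 59.5% of those changed with libraries rescaled to a common FPKM sum, which moved the median of all genes from -0.02 to 0.06, and 53.6% with a common sum of protein-coding genes, an alternative added after seeing the data. Genes whose effect differed with radiation numbered 0 with a pseudocount of 0.1, 3 with FPKM of at least 5, 4 with a common sum, 4 with protein-coding genes only, 2 by voom, 5 with a common sum of protein-coding genes, and 0 to 4 without 1 library. With the replicate block, 5050 genes changed, 497 at least 2-fold, and 0 differed with radiation; the numbers did not pair the samples. Causes of these shifts were not tested. In all alternatives 66 ribosome biogenesis genes fell. Medians of the BCL2, NRF2, Notch and Wnt, YAP, thioesterase, growth factor, matricellular and nuclear respiratory chain lists changed sign under at least 1 setting. Depth limits low and short genes most, such as the snoRNA genes, of which 6 to 16 fell across settings.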
